A study of Mus musculus with 19 samples.

Results

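Erythroblasts, the nucleated precursors of red blood cells, were set against every other population of the series. They were taken by label as the arrays of early erythroblasts (Ter119-positive, large by forward scatter, high in CD44; 2 arrays) and of late erythroblasts (Ter119-positive, small, intermediate in CD44; 3 arrays), which gave 5 of the 19 arrays. The other 14 arrays held LSK cells (lineage-negative, Kit-positive and Sca-1-positive stem and multipotent progenitor cells; 3 arrays), common myeloid progenitors (CMP, 3 arrays), megakaryocyte-erythroid progenitors (MEP, 3 arrays), granulocyte-macrophage progenitors (GMP, 2 arrays) and Gr1-positive granulocytes (3 arrays). The source of all cells was bone marrow, taken from C57BL/6 adults 8 to 12 weeks of age, with no genetic or drug treatment named in the labels. Total RNA was hybridised to a single-colour custom Agilent array that adds long noncoding RNA probes to a gene expression design. The labels do not say whether arrays of 1 cell type came from separate mice, so p-values reflect only how far these samples spread, and that spread may be technical.

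Erythroblasts arise from MEP under the hormone erythropoietin, fill with hemoglobin, divide a last few times, condense their nucleus and expel it. GATA1 and KLF1, the main transcription factors of the lineage, bind the regulatory DNA of globin, heme and membrane genes, and GATA1 replaces GATA2 as progenitors mature. The reticulocyte that remains then loses its mitochondria and ribosomes, and its membrane skeleton, tied to band 3 by ankyrin, gives the red cell its shape. A microarray reads relative RNA levels, so a smaller amount of RNA per cell cannot be seen directly, and a lower level in a sorted sample cannot tell fewer expressing cells from less RNA in each cell.

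Signal was lower on erythroblast arrays than elsewhere. Their 75th percentile of signal was 50.1 to 81.3 intensity units, against 266 to 607 on the other arrays, and 42.9 to 47.1% of their spots were well above background, against 49.5 to 66.3%. The added spike-in control RNA was brighter on most erythroblast arrays, with a log2 mean of 13.1 to 14.4 (median 13.53) on these and 12.2 to 13.4 (median 12.64) on the others, and 4 of the 5 erythroblast arrays lay above all 14 others. Levels are therefore given as log2 signal minus the 75th percentile of the array, so each value is relative to the rest of the RNA on that array, and whether a gene was also higher in unscaled signal is stated separately. The arrays lay on 5 slides, of which 3 held erythroblasts beside other populations. Granulocyte arrays stood apart in several ways. First, hemoglobin probes held 0.314 to 0.327% of their signal, against 0.00465 to 0.0242% on LSK, CMP, MEP and GMP arrays. Second, the X-inactivation RNA Xist was well above background on these 3 arrays and on no other, while the Y-linked Ddx3y was well above background on every array except these. The labels give no sex. Granulocyte arrays also varied least, with a median SD of 0.065 between arrays over the features described, against 0.13 to 0.22 for the other cell types.

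Of 26227 features tested, 6167 (23.5%) were called higher in erythroblasts and 4998 (19.1%) lower. A call needed an adjusted p under 0.05 in a limma fit of cell type means, no overlap between the 5 erythroblast and the 14 other arrays, and a level well above background on every array of the higher side. Among 15033 named genes, 2802 were higher (18.6%) and 3963 lower (26.4%), and these 2 percentages are the background for every gene group below. The median difference of the genes called higher was 2.55 on the log2 scale, and 569 of them differed by at least 16-fold. The median of the genes called lower was -2.98, and 862 differed by at least 16-fold. At the edge of the rule lay Pqbp1, whose highest erythroblast array was at 1.88 and whose lowest other array was at 1.88, a gap of 4.73e-05, and just outside it lay Supt5, with a gap of -0.000357, that is, an overlap. Limma's adjusted p was 6.78e-07 or less for each of the 104 called genes named in the text whose alternatives were computed.

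The split between higher and lower calls depends on how arrays are scaled and on how dim the tested features may be. Higher calls were 55.2% of all calls with the 75th percentile, 49.1% after quantile normalization and 2.17% after scaling to the spike-in RNA, where 288 features were higher and 12997 lower. With the 75th percentile, but only features with a mean signal of at least 100 units on either side, they were 46.15%. There 4198 features were higher and 4898 lower, with a median difference of -0.425. The median difference of all tested features was 0.23 with the 75th percentile, -0.28 with quantile normalization, 0.80 after normexp background correction, -3.42 with spike-in scaling and -2.50 without scaling. Of the 6167 features called higher, 717 also had all 5 erythroblast arrays above all 14 others in unscaled signal, and 372 of these were named genes. Of the 4998 called lower, 4954 were also called lower with quantile normalization and 3731 after normexp. All were called lower with spike-in scaling and without scaling. Both of these settings move every erythroblast array down against every other array, so they could not undo the separation of a lower call and do not test it.

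Genes of heme synthesis, red cell transport and hemoglobin were among those with the largest differences. Alas2, the erythroid enzyme for the first step of heme synthesis, was at 10.41 and 9.98 on the early and 11.44, 11.05 and 10.93 on the late erythroblast arrays. On the other arrays it was at -2.83 to 3.06, with a median of -1.75, and the 3 granulocyte arrays were the highest of these. The difference was 11.62 ± 0.12 (SE; adjusted p = 2.02e-17), and no erythroblast array came near the others. Slc4a1, the band 3 anion exchanger of the red cell membrane, was at 11.84 and 11.40 on the early and 12.21, 11.75 and 11.86 on the late erythroblast arrays, and at -1.56 to 3.08 on the other arrays, with a median of -0.48. It differed by 11.76 ± 0.14. The erythroblast arrays of these genes stood apart from every other array by more than the whole range of the erythroblast arrays.

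Unc93a2 had the largest difference of all named genes detected on every array. Its levels were 9.84 and 10.33 on the early and 10.82, 10.83 and 11.56 on the late erythroblast arrays, and -3.24 to 1.03 on the other arrays, with a median of -2.34, a difference of 12.42 ± 0.15. Zdhhc22, of the palmitoyltransferase family, differed by 11.17 ± 0.16, with 9.17 to 10.82 on erythroblast arrays and -2.62 to 2.60 on the others. Slc6a9, a glycine transporter, was at 9.71 to 10.08 on the erythroblast arrays against -1.47 to 1.42 elsewhere. Glycine is a substrate of the enzyme that Alas2 encodes. Fhdc1, a formin that acts on actin and microtubules, differed by 9.25 ± 0.11, and Tent5c, a poly(A) polymerase, by 8.68 ± 0.20. Each of these genes was also higher in unscaled signal.

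**Figure D1:**
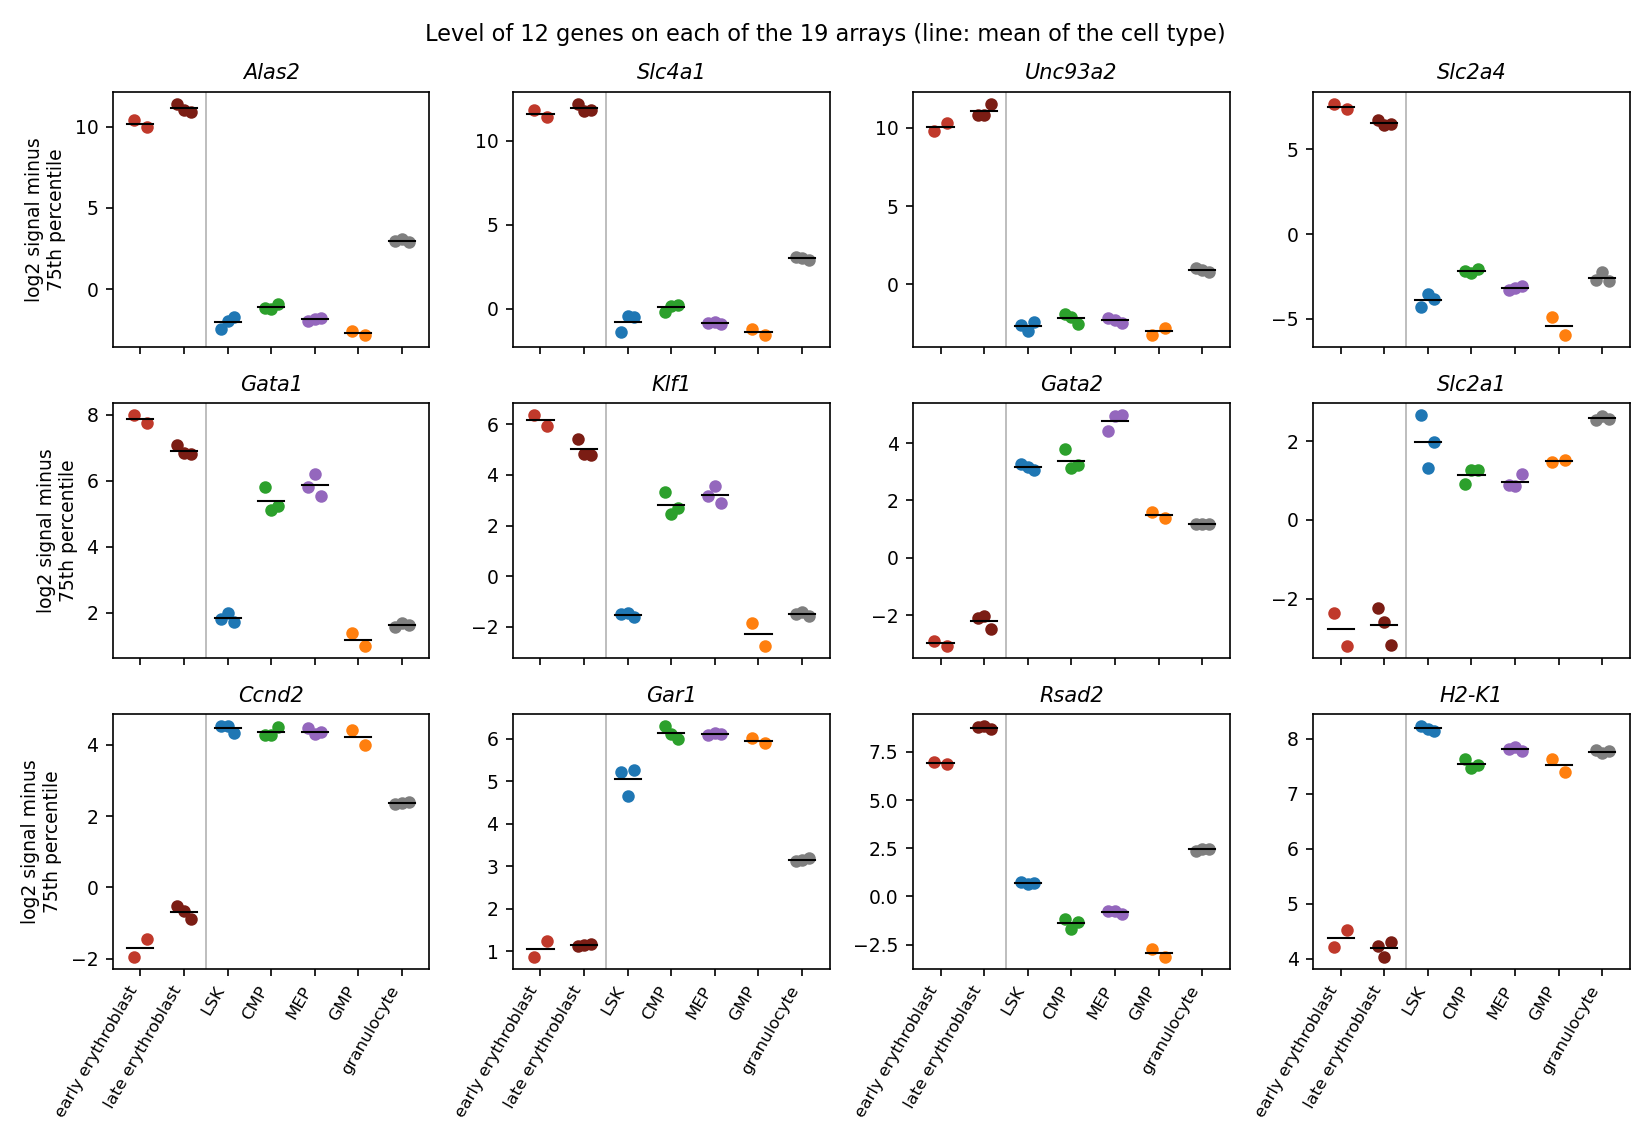
Level of 12 genes on each array, as log2 signal minus the array's 75th percentile, with early and late erythroblasts left of the grey line and the 5 other populations right of it. Each point is 1 array and each black line the mean of a cell type. Gata1 and Klf1 also show CMP and MEP arrays above LSK, GMP and granulocyte arrays, and Slc2a4 and Slc2a1 lie on opposite sides.

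Of 18 erythroid transcription factors tested, 11 were higher and 3 lower, with a median difference of 2.88 that became -0.77 with spike-in scaling. Gata1 was at 7.998 and 7.75 on the early and 7.07, 6.83 and 6.81 on the late erythroblast arrays. The other arrays ranged from 0.99 to 6.20, and those of MEP were the nearest. The difference of 4.21 ± 0.13 was thus smaller than those of the globin genes, and Gata1 was not separated in unscaled signal. Klf1, which drives adult beta-globin transcription, was at 4.81 to 6.38 on erythroblast arrays and -2.76 to 3.56 on the others, and differed by 5.45 ± 0.18. Tal1, a partner of GATA1, differed by 4.53 ± 0.10. Larger differences were those of Sox6, which silences embryonic globin, at 7.34 ± 0.17, and E2f2, a cell cycle factor, at 6.33 ± 0.10. Both were also higher in unscaled signal.

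The 3 lower members were Gata2, Myb and Bcl11a. Gata2, the GATA factor of stem and progenitor cells, was at -2.89 and -3.08 on the early and -2.12, -2.05 and -2.50 on the late erythroblast arrays, and at 1.16 to 4.99 on the other arrays, with a median of 3.13. It was well above background on 2 of the 5 erythroblast arrays and on all 14 others, and fell by 5.40 ± 0.12 on the log2 scale. Gata1 and Gata2 therefore had differences of opposite sign against the same 14 arrays. Myb, a factor of immature progenitors, fell by 4.47 ± 0.13, and Bcl11a, a repressor of fetal globin in humans and of embryonic globin in mice, fell by 3.08 ± 0.09. For all 3 the granulocytes were the nearest population. Spi1, which encodes the myeloid factor PU.1, was not called because its arrays overlapped: late erythroblast replicate 2 was at 0.40, the other 4 at -4.77 to -2.70, and the other populations at -1.39 to 1.94. Runx1, needed to form blood stem cells, did not pass the test, with 2.25 to 3.40 on the erythroblast arrays and 2.60 to 3.62 on the others (adjusted p = 0.164). It passed limma's test when all its probes were averaged, at -0.70 (adjusted p = 2.32e-06), and after normexp, at -0.87 (adjusted p = 1.08e-05).

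All 10 tested members of the hemoglobin list were higher, 8 of them also in unscaled signal, with a median difference of 8.52. Hbb-bs, an adult beta-globin gene, was at 10.71 and 10.29 on the early and 11.38, 10.88 and 11.18 on the late erythroblast arrays, and at -1.98 to 4.88 on the other arrays, with a median of -0.55. Its difference was 10.55 ± 0.16. Hba-a1, an alpha-globin gene, was at 12.24 to 13.10 on erythroblast arrays and 1.65 to 8.37 on the others, a difference of 8.65 ± 0.13. The other arrays spread widely for both genes, and the top of their range was the granulocyte arrays. Adult globin genes are near-identical copies, so a probe may read its neighbours and members should not be taken as separate measurements. Without the granulocyte arrays the list's median difference was 9.49.

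Of 18 heme synthesis genes, 13 were higher and 2 lower, with a median of 5.07. Fech, which inserts iron into the heme ring, was at 9.58 and 9.24 on the early and 10.34, 9.95 and 10.04 on the late erythroblast arrays, and at 2.76 to 4.42 on the other arrays, with a median of 3.60, a difference of 6.17 ± 0.09. Slc25a38, which brings glycine into mitochondria, differed by 4.69 ± 0.08. The lower members were Alas1 and Flvcr1. Alas1, the form of the first heme enzyme that other tissues use, was at 1.86 to 3.66 on the erythroblast arrays against 4.28 to 8.18, and fell by 3.01 ± 0.14, so the 2 forms of this enzyme had differences of opposite sign. Flvcr1, a heme exporter, fell by 3.39 ± 0.12 and was well above background on 2 of 5 erythroblast arrays.

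Of 18 iron genes, 10 were higher and 1 lower, with a median of 2.10 that became -1.55 with spike-in scaling. Slc25a37, the mitochondrial iron importer mitoferrin 1, was at 10.42 to 11.49 on erythroblast arrays and 3.23 to 4.48 on the others, a difference of 7.13 ± 0.11. Tfrc, the transferrin receptor that takes up iron, was at 7.73 and 7.87 on the early and 7.48, 7.33 and 7.97 on the late erythroblast arrays, and at 0.73 to 3.14 on the other arrays, with a median of 2.27. It differed by 5.60 ± 0.11, and both genes were also separated in unscaled signal.

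The stretch before the start of 6 of these genes is printed to show the letters that GATA and KLF factors are known to bind. Each is the 250 bases upstream of a RefSeq start in mouse build GRCm38.p6, 5′ to 3′ on the gene's strand, with AGATAA or TGATAA and CCNCNCCC, on either strand, in capitals. Alas2 lies on chromosome X (chrX:150547167-150547416, plus strand), Epor on chromosome 9 (chr9:21963577-21963826, minus), Klf1 on chromosome 8 (chr8:84901732-84901981, plus), Hbb-bs on chromosome 7 (chr7:103827929-103828178, minus), Kel on chromosome 6 (chr6:41704326-41704575, minus) and Rhag on chromosome 17 (chr17:40810899-40811148, plus).
Alas2: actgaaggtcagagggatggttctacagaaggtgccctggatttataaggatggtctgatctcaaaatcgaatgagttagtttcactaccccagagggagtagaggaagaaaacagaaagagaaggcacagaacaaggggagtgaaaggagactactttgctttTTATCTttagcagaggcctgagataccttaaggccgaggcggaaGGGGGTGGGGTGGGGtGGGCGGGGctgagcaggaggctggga
Epor: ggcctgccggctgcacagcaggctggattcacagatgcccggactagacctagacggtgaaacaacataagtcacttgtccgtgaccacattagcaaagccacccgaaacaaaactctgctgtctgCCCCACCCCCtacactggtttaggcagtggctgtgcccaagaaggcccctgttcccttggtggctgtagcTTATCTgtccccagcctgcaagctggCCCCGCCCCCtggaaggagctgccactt
Klf1: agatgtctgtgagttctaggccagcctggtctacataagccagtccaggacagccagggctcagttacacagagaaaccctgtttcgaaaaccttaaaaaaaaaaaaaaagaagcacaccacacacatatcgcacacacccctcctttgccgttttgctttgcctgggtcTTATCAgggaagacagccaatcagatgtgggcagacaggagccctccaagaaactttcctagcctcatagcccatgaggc
Hbb-bs: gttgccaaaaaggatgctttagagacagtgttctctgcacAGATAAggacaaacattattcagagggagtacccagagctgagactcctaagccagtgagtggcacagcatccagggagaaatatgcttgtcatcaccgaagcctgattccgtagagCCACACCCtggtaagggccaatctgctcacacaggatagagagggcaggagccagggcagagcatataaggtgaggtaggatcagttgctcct
Kel: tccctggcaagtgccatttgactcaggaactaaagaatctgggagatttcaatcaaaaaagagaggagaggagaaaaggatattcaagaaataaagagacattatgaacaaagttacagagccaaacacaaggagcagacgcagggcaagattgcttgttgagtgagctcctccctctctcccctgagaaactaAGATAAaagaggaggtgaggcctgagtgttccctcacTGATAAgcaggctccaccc
Rhag: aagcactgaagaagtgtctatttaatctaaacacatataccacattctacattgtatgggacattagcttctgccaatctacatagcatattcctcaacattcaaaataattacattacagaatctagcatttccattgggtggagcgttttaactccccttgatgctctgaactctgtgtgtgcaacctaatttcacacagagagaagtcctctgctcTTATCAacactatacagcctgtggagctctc

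Each of the 6 windows held GATA letters. Alas2 and Epor held them once and the KLF letters 4 times each, counting overlapping matches. Hbb-bs held each once. Klf1 and Rhag held the GATA letters once, and Kel held them at 2 places, with no KLF match in these 3 windows. Such letters are common: of 27025 promoters in the table, read from 250 bases before to 50 after the start, 18.95% held the GATA letters, 49.1% the KLF letters and 5.74% both. Among the 11990 tested named genes with a promoter these shares were 12.0, 64.9 and 5.50%. A comparison of called with other genes is treated as void here, since part of each set had no promoter in the table. One was present for 79.1% of the genes called higher, 81.4% of those called lower and 79.8% of all tested. The matches are a description of these windows and not of binding.

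Genes of the membrane skeleton and the red cell surface were higher almost throughout. Of 14 skeleton genes, 13 were higher and 1 lower, with a median of 6.00, and of 21 surface genes 19 were higher and 1 lower, with a median of 5.92. Ank1, the ankyrin that ties the skeleton to band 3, was at 6.39 and 6.19 on the early and 6.30, 5.77 and 6.08 on the late erythroblast arrays, and at -4.76 to 0.89 on the other arrays, with a median of -2.41. It differed by 8.23 ± 0.17. Dmtn, an actin-binding protein of the skeleton, differed by 10.18 ± 0.14, Tmod1, which caps its short actin filaments, by 9.98 ± 0.25, and Epb42, protein 4.2, by 9.10 ± 0.16. Tmod1 was well above background on 6 of the 14 other arrays, Dmtn and Epb42 on 9 each, and Ank1 on 12. Actb, cytoplasmic actin, was the least changed of the higher members, at 10.07 to 10.71 against 8.96 to 9.85, and its difference of 1.04 ± 0.11 was 0.00 with quantile normalization and -2.61 with spike-in scaling. The lower member was the tropomyosin Tpm3, which fell by 2.80 ± 0.11 but by 0.28 (adjusted p = 0.144) when all its probes were averaged.

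Among surface genes, Kel, the Kell blood group protein, was at 9.08 and 8.82 on the early and 9.33, 8.97 and 9.16 on the late erythroblast arrays, and at -2.31 to 3.76 on the other arrays, with a median of 0.27. It differed by 8.31 ± 0.14, and Rhag, a channel of the Rhesus complex, differed by 8.48 ± 0.20. The glucose transporters had opposite signs. Slc2a4, the GLUT4 transporter known best from muscle and fat, was at 7.71 and 7.36 on the early and 6.77, 6.46 and 6.52 on the late erythroblast arrays, and at -5.96 to -2.08 on the other arrays, with a median of -3.12, so it differed by 10.52 ± 0.16. Slc2a1, the GLUT1 transporter of most cells, was at -2.35 and -3.20 on the early and -2.24, -2.58 and -3.18 on the late erythroblast arrays, and at 0.85 to 2.67 on the other arrays, with a median of 1.39. It fell by 4.36 ± 0.20 and was well above background on 2 of 5 erythroblast arrays.

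Cytokine receptor and JAK-STAT genes were mostly lower, with 7 of 37 higher and 22 lower and a median of -3.14. Epor, the erythropoietin receptor, was at 9.22 and 8.77 on the early and 8.32, 8.09 and 8.14 on the late erythroblast arrays against -1.12 to 5.29 on the other arrays, with a median of 0.53. Its difference of 6.64 ± 0.14 was measured against arrays of which MEP were the nearest. Kit, the stem cell factor receptor by which the progenitors were sorted, was at -1.21 to 0.10 on erythroblast arrays and 2.46 to 5.41 elsewhere, and fell by 5.004 ± 0.10. Csf2rb, the shared chain of the interleukin-3 and GM-CSF receptors, fell by 3.70 ± 0.16. Both STAT5 genes, which act downstream of the erythropoietin receptor, were lower: Stat5a fell by 4.11 ± 0.12 and Stat5b fell by 2.88 ± 0.09.

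Of 40 cell division genes tested, 18 were higher and 4 lower, with a median of 1.82 that became -1.83 with spike-in scaling, and none of the 18 was separated in unscaled signal. The list's median level was 6.52 in early but 4.89 in late erythroblasts, against 3.355 to 4.66 in the other populations. Mki67, the Ki-67 antigen of cycling cells, was at 11.06 and 10.87 on the early and 9.88, 9.92 and 9.96 on the late erythroblast arrays, and at 4.83 to 6.67 on the other arrays, with a median of 6.37, and differed by 4.39 ± 0.08. Ccna2, cyclin A2 of S and G2 phase, differed by 2.93 ± 0.10, which became -0.72 with spike-in scaling. The 4 lower members were Ccnd1, Ccnd2, Cdk6 and Cdk4, the cyclins D and their kinases that act in G1. Ccnd2 was at -1.95 and -1.44 on the early and -0.51, -0.65 and -0.89 on the late erythroblast arrays, and at 2.34 to 4.53 on the other arrays, with a median of 4.31. It fell by 5.14 ± 0.10, and Cdk4 fell by 2.15 ± 0.07. Ccnd1 and Cdk6 were well above background on none of the 5 erythroblast arrays and on all 14 others, and were at least 19.4-fold and at least 6.44-fold lower. Ccnd3, the cyclin D that erythroblasts are known to use, was not called: its early erythroblast arrays were at 9.13 and 8.75 and its late ones at 7.22, 7.12 and 7.11, and the other arrays at 5.33 to 7.99, so the early arrays lay above all others and the late ones below the granulocytes.

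Inhibitors of cyclin-dependent kinases were higher in 4 of 7 cases and lower in 1, with a median of 3.46 that became -0.19 with spike-in scaling. Cdkn2d, which inhibits CDK4 and CDK6, was at 7.44 to 9.32 on erythroblast arrays and 3.59 to 6.39 on the others, a difference of 4.03 ± 0.10. Cdkn2c, an inhibitor of the same kinases, differed by 3.81 ± 0.12. Cdkn1a, the p21 inhibitor that p53 induces, fell by 2.82 ± 0.27, but by 0.42 (adjusted p = 0.105) when its probes were averaged.

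Histone genes of the H1, H2A, H2B, H3 and H4 families, picked by symbol after their values were seen, were higher in 37 of 46 cases and lower in 1, with a median of 3.01, and 5 of the 37 were also higher in unscaled signal. All 7 tested H3 and all 8 tested H4 genes were higher. H2bc18, an H2B gene, was at 9.62 and 8.83 on the early and 7.54, 7.24 and 7.46 on the late erythroblast arrays, and at 1.45 to 3.91 on the other arrays, with a median of 2.86. It differed by 5.34 ± 0.19, H1f4, a linker histone, by 4.57 ± 0.21, and both were also higher in unscaled signal. H4c12 differed by 3.07 ± 0.17, which became -0.58 with spike-in scaling. For 7 bright H2A probes, among them that of H2ac12, the unscaled signal was nearly the same on both sides, at 261888 to 397365 units on erythroblast arrays and 259995 to 392549 on the others, and the scaled differences were 2.80 to 2.89. Histone genes of 1 family are near-identical in sequence, so these probes do not measure separate genes.

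Ribosome biogenesis was lower in erythroblasts, whereas most ribosomal protein genes were not called. Of 37 biogenesis genes, 30 were lower and 1 higher, with a median of -3.27. Gar1, a protein of the small nucleolar particles that modify ribosomal RNA, was at 0.86 and 1.25 on the early and 1.14, 1.16 and 1.16 on the late erythroblast arrays, and at 3.13 to 6.30 on the other arrays, with a median of 5.95, and fell by 4.17 ± 0.10. Npm1, the nucleolar protein nucleophosmin, fell by 3.45 ± 0.11. Noc3l was the exception, at 2.68 to 3.16 against 1.19 to 1.84. Its difference of 1.46 ± 0.08 became -2.19 with spike-in scaling. Of 47 ribosomal proteins, none was higher and 5 were lower, with a median of -0.94. Their median level was 8.06 in early and 7.21 in late erythroblasts, 7.82 in granulocytes and 8.78 to 9.30 in LSK, CMP, MEP and GMP. A gene could not be called lower where granulocyte arrays overlapped, and without granulocytes the median difference was -1.12. Rpl10 fell by 1.26 ± 0.09, while Rplp0 was at 9.09 to 10.43 on the erythroblast arrays and 9.08 to 10.13 on the others (adjusted p = 0.411) and had a difference of -1.11 with quantile normalization.

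Glycolysis genes fell in 16 of 24 cases and rose in 2, with a median of -2.87. Hk2, which phosphorylates glucose, was at -4.86 to -2.10 against 0.92 to 2.85 and fell by 5.34 ± 0.18. It was well above background on 1 erythroblast array, so its level on the other 4 is not separated from background. Pgk1 fell by 3.86 ± 0.11, the muscle-type pyruvate kinase gene Pkm fell by 3.55 ± 0.21 and Gapdh fell by 2.57 ± 0.08. Bpgm, which makes the 2,3-bisphosphoglycerate that loosens oxygen from hemoglobin, stood on another list and rose: it was at 5.28 and 5.52 on the early and 8.78, 8.56 and 8.39 on the late erythroblast arrays, and at 0.93 to 1.81 on the other arrays, with a median of 1.42. Of 39 oxidative phosphorylation genes, 2 were higher and 7 lower, with a median of -0.42, so the shares called were below the background in both directions. The stages were not alike, with a list median of 5.77 in early and 4.65 in late erythroblasts. It was 4.82 in granulocytes and 5.05 to 6.01 in LSK, CMP, MEP and GMP, so few calls do not mean equal levels. Antioxidant enzymes were higher in 10 of 24 cases and lower in 3. Prdx2, the peroxiredoxin abundant in red cells, was at 10.26 to 10.59 against 3.79 to 6.64 and differed by 4.90 ± 0.08, while the related Prdx1 fell by 1.90 ± 0.09.

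**Figure D2:**
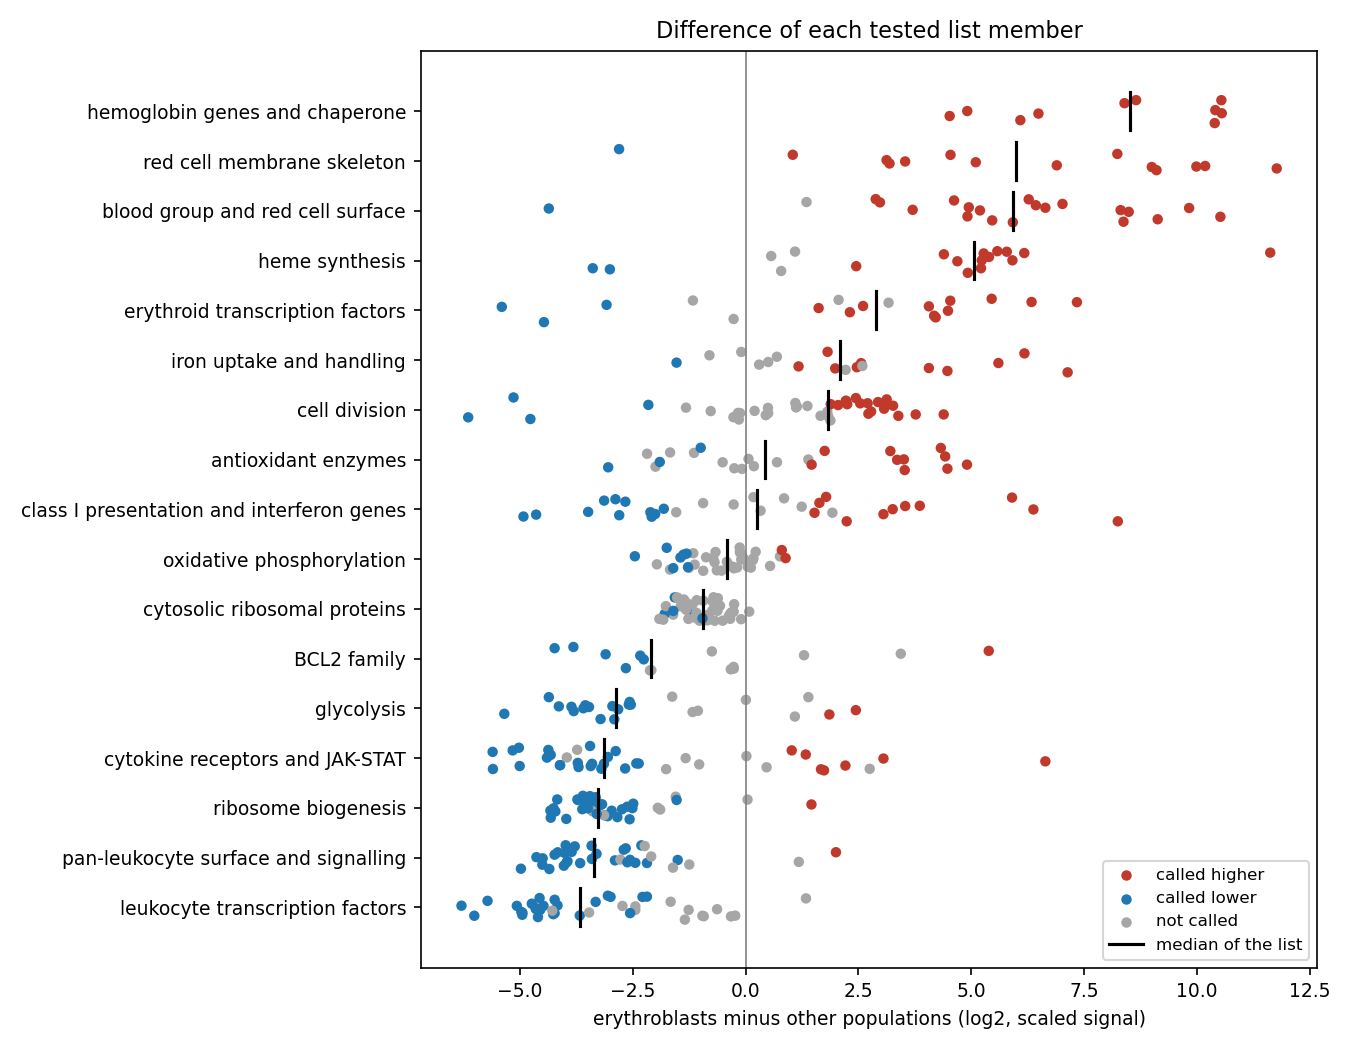
Difference between erythroblasts and the other populations for each tested member of 17 gene lists, on the log2 scale of scaled signal, with called members in red or blue, other members in grey and the list median as a black line. Red cell lists lie to the right, with medians of up to 8.52, and leukocyte and ribosome biogenesis lists to the left.

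Class I presentation and interferon genes went in both directions, with 11 of 30 higher and 11 lower. The higher ones included Rsad2 (viperin), Isg15 and Isg20, which interferon is known to induce. Rsad2 was at 6.99 and 6.86 on the early and 8.77, 8.86 and 8.67 on the late erythroblast arrays, and at -3.16 to 2.47 on the other arrays, with a median of -0.77, and differed by 8.24 ± 0.09. Isg15 differed by 6.37 ± 0.10 and Isg20 by 5.90 ± 0.11, and all 3 were higher in unscaled signal too. The lower ones included the class I heavy chain H2-K1, at 4.21 and 4.52 on the early and 4.23, 4.02 and 4.30 on the late erythroblast arrays and 7.39 to 8.24 on the other arrays, with a median of 7.77, which fell by 3.49 ± 0.07. Nlrc5, the activator of class I transcription, fell by 4.64 ± 0.19 and was well above background on 2 of the 5 erythroblast arrays. B2m, the light chain of class I molecules, was not called, with 7.04 to 7.46 on the erythroblast arrays and 7.23 to 7.996 on the others.

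Of 36 proteasome genes tested, 3 were higher and 8 lower, a share under the background in both directions. The largest falls were those of the 3 immunoproteasome subunits: Psmb8 fell by 4.92 ± 0.17, Psmb10 fell by 4.27 ± 0.10 and Psmb9 fell by 2.88 ± 0.09. Psmb8 was at -1.20 to 1.24 on the erythroblast arrays and 4.33 to 5.81 on the others. Ubiquitin-conjugating enzymes were higher in 9 of 30 cases and lower in 9. Ube2o, which in mice marks unassembled globin and ribosomal proteins in reticulocytes, was at 8.08 and 8.02 on the early and 10.86, 10.47 and 10.46 on the late erythroblast arrays, and at 2.08 to 3.19 on the other arrays, with a median of 2.92. It differed by 6.57 ± 0.08.

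In the BCL2 family, Bcl2l1 alone of 15 tested members was higher and 6 were lower. Bcl2l1, whose protein BCL-XL keeps erythroblasts alive, was at 7.23 and 7.37 on the early and 10.52, 10.38 and 10.45 on the late erythroblast arrays, and at 3.07 to 4.64 on the other arrays, with a median of 3.26, a difference of 5.38 ± 0.06. Bcl2, a survival factor of many blood cells, fell by 2.33 ± 0.11, and the death-promoting Pmaip1, well above background on 3 of the 5 erythroblast arrays, fell by 3.81 ± 0.41. Mcl1, needed by stem cells, was not called, at 4.51 to 5.71 against 4.76 to 6.78. Of 22 autophagy genes, 9 were higher and 3 lower, with a median of 1.62 that became -2.03 with spike-in scaling. Bnip3l (NIX), the receptor that clears mitochondria from reticulocytes, was at 6.93 to 9.40 against 3.90 to 5.41 and differed by 3.64 ± 0.08, which became -0.01 with spike-in scaling. Of 27 lysosome genes, 18 were lower and 1 higher; that one was the protease gene Ctsb, which differed by 4.05 ± 0.08, but by 0.40 (adjusted p = 0.240) with spike-in scaling.

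Leukocyte genes were lower in most cases. Of 34 pan-leukocyte genes, 27 were lower and 1 higher, with a median of -3.35, and of 39 leukocyte transcription factors 25 were lower and none higher, with a median of -3.67. Ptprc, the CD45 phosphatase of all white cells, was at -2.13 and -0.70 on the early and -0.76, -0.36 and -0.34 on the late erythroblast arrays, and at 1.92 to 4.94 on the other arrays, with a median of 2.48, and fell by 3.85 ± 0.18. Cd44, which was used to separate the erythroblast stages, was at 0.56 to 1.41 against 2.73 to 4.64 and fell by 2.56 ± 0.11. Myc, a growth factor-driven transcription factor, fell by 4.97 ± 0.31, and of the early-response factors Fos fell by 6.29 ± 0.27 and Egr1 fell by 6.01 ± 0.43. Egr1 was at -3.56 to 0.33 on erythroblast arrays and at 0.70 or above on the others. Vim, the intermediate filament vimentin, fell by 4.38 ± 0.21, and the actin gene Actg1 fell by 2.41 ± 0.09.

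Of genes detected on all 19 arrays, those lower by most included Tmem176b, a membrane protein of myeloid cells, which fell by 5.89 ± 0.13, and Ptprs, a receptor phosphatase, which fell by 5.68 ± 0.14. Dusp2, a phosphatase of MAP kinases, fell by 5.66 ± 0.17, and Cd93, a surface protein of early progenitors and endothelium, fell by 5.66 ± 0.21. Tmem176b was at -1.50 and -0.40 on the early and 0.50, 0.13 and 0.34 on the late erythroblast arrays, and at 4.12 to 6.73 on the other arrays, with a median of 5.82. Among the 15033 named genes tested, 973 were well above background on all 14 other arrays and on none of the 5 erythroblast arrays. Over all 26227 features this held for 1441, and the reverse for 98. Erythroblast arrays had fewer spots well above background, at 42.9 to 47.1% against 49.5 to 66.3%. The part of this in the counts was not tested. Meis1, a stem cell homeobox factor, was at least 45.4-fold lower and Angpt1, a ligand of the Tie2 receptor, at least 40.0-fold lower. In these bounds the dim side is set to the lowest signal well above background on each array, and both sides are in scaled signal.

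The reverse held for 39 named genes, well above background on all 5 erythroblast arrays and on none of the other 14. Nrip3 was at 4.85 and 4.83 on the early and 3.97, 3.48 and 3.80 on the late erythroblast arrays, at least 502-fold above the others. Slfn14, an RNA-cleaving protein linked to ribosomes, was at 2.12 and 2.09 on the early and 5.48, 5.10 and 5.01 on the late erythroblast arrays and at least 323-fold higher. Plek2, a pleckstrin that binds membrane lipids and actin, was at least 132-fold higher, and the vascular growth factor Vegfd at least 96.4-fold. The 14 other arrays of these genes were all below the detection limit, so they cannot be ranked there. These bounds too are in scaled signal, and the scaling raises erythroblast arrays against the others. Bounds in unscaled signal, which would be smaller, were not computed.

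The nearest other population differed from gene to gene. It is the one with the highest mean for a gene called higher and the lowest mean for a gene called lower. A population that stands apart from the other 4 can thus be nearest in both directions, so the counts do not rank likeness to erythroblasts. Among the 2802 genes called higher the nearest was the granulocytes for 1161, GMP for 544, MEP for 439, CMP for 421 and LSK for 237. Among the 3963 genes called lower it was the granulocytes for 2106, MEP for 658, LSK for 540, CMP for 335 and GMP for 324. Against MEP alone, 7860 features were higher and 8233 lower, and without granulocytes 6934 and 6606. Both settings leave fewer arrays that must not overlap, which by itself adds calls. The Y-linked Ddx3y and Eif2s3y were called higher by 2.39 ± 0.10 and 2.44 ± 0.27, which became -1.26 and -1.21 with spike-in scaling, and both were smaller without granulocytes, where Ddx3y was 0.65 higher (adjusted p = 1.99e-05) and Eif2s3y 0.62 higher (adjusted p = 0.0543). Within slides 1, 3 and 4 Ddx3y was higher by 0.78, 0.70 and 0.78, and in a model of only 2 groups its adjusted p was 0.150.

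Markers of other cells were set beside these results. All 19 tested granulocyte markers were well above background on at least 1 erythroblast array, and their summed level was 1202 to 3887 times the 75th percentile there, against 9727 to 10830 on granulocyte arrays. Their median level was 4.39 in early and 5.80 in late erythroblasts, above MEP at 2.29 and CMP at 2.78. It was 5.37 in LSK cells, 5.6 in GMP and 8.34 in granulocytes. The median difference of these markers was -0.39 over all populations and 3.04 against MEP alone. S100a8, an abundant neutrophil protein, was at 6.63 and 8.26 on the early and 8.71, 8.89 and 8.86 on the late erythroblast arrays, and at 4.58 to 9.97 on the other arrays, with a median of 8.07. Of 17 macrophage markers none was higher and 1 lower, and of 24 megakaryocyte markers 1 was higher and 5 lower, among them Pf4, platelet factor 4, which fell by 5.89 ± 0.22. Macrophage markers summed to 49.5 to 68.0 on erythroblast arrays and 38.0 to 253 on the others, with 2 detected on no erythroblast array. No macrophage marker could be called higher where granulocyte arrays overlapped, and the median difference of these markers was 0.95 over all populations, 1.86 without granulocytes and 2.58 against MEP alone. On slides 1, 3 and 4 the complement gene C1qb was higher in erythroblasts by 3.37, 3.40 and 3.72 and Cd5l by 2.45, 2.48 and 2.99. Apoe and Csf1r of the same list were lower there, at -1.65, -2.79 and -3.02 and at -1.59, -1.64 and -0.92. Adgre1 had no common sign, at -0.98, 0.008 and 1.03. Endothelial and stromal markers summed to 80.0 to 168 on erythroblast arrays and 13.3 to 34.4 on the others, with 2 of 12 called higher, the receptor genes Kdr and Lepr, and 4 detected on no erythroblast array. B cell markers summed to 14.6 to 25.6 on erythroblast arrays and 37.4 to 412 on the others. The part of such cells in the results was not tested.

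Early and late erythroblasts were then compared within the called genes. Among the 2802 genes called higher, 783 were higher in late than in early erythroblasts, 634 were lower, and 1385 did not pass that test. Among the 372 also higher in unscaled signal, 185 were higher in late erythroblasts and 32 lower, by the same test of scaled signal. In a fit without scaling these counts were 58 and 42, so the excess in late erythroblasts depends on the scaling. Xpo7, a nuclear exporter, was at 1.23 and 1.999 on the early and 6.10, 5.62 and 5.93 on the late arrays, against -0.95 to 0.12 on the others. Its late arrays were higher by 4.27 ± 0.21 (adjusted p = 7.46e-09). Ube2h, a ubiquitin-conjugating enzyme, was higher in late erythroblasts by 3.27 ± 0.24, Bcl2l1 by 3.14 ± 0.10 and Ube2o by 2.55 ± 0.14. Mitotic kinase genes went the other way. Plk1 was at 8.21 and 7.89 on the early and 6.17, 5.94 and 6.08 on the late arrays, and fell by 1.99 ± 0.19, and Aurka fell by 2.03 ± 0.14. Both stages lay above every other array, at 3.36 to 5.49 for Plk1 and 3.02 to 4.80 for Aurka, but with spike-in scaling the difference from the others was -1.21 for Plk1 and -1.40 for Aurka.

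**Figure D3:**
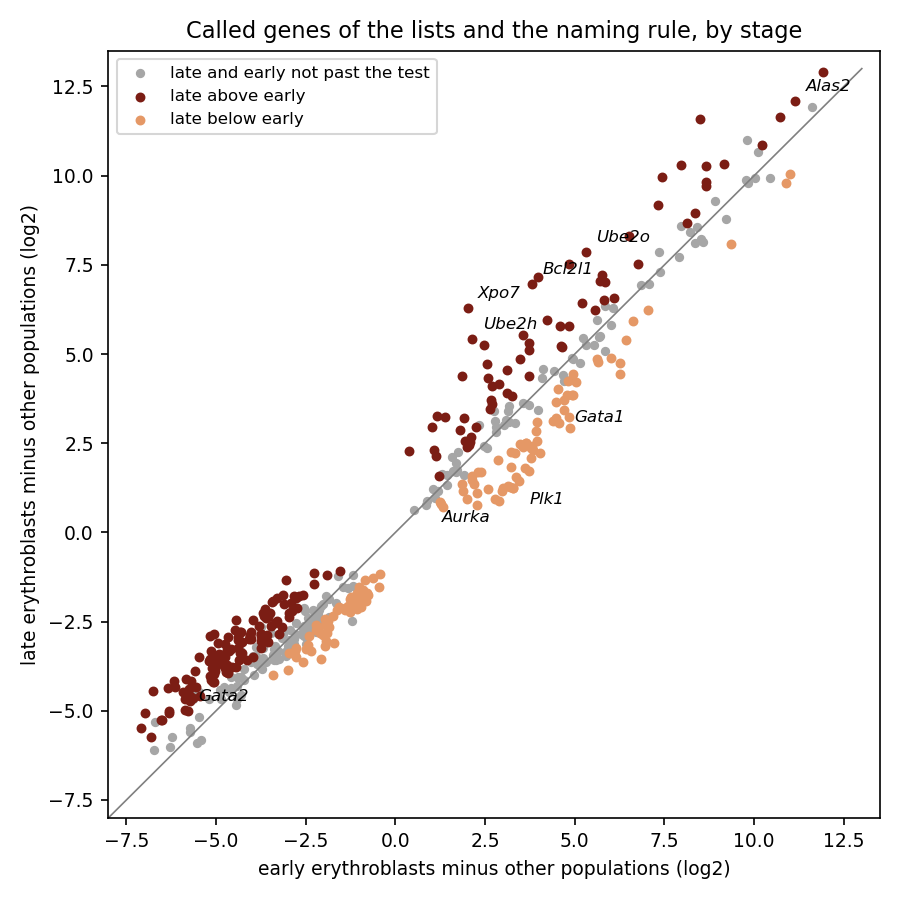
Difference from the other populations in early (x axis) and late (y axis) erythroblasts, both log2, for 479 called genes of the lists and the naming rule. Dark points (183) were higher in late erythroblasts, light points (124) lower, and grey points (172) did not pass the test of the stages. The line marks equal differences, and Xpo7 lies farthest above it among the labelled genes.

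Signal was concentrated in fewer probes on erythroblast arrays. The 10 brightest probes held 7.40 and 6.37% of the summed signal on the early and 9.41, 8.80 and 8.31% on the late erythroblast arrays, and 1.49 to 2.47% on the other 14. The mean was 8.06 ± 1.20% in erythroblasts and 1.85 ± 0.32% in the others (SD, n = 5 and 14). The 100 brightest held 35.4 ± 4.66% against 14.1 ± 0.96%, and the 1000 brightest 73.9 ± 2.58% against 63.2 ± 2.69%. The brightest probe of an array read 447291 to 504476 units on erythroblast arrays and 347143 to 574949 on the others, while the summed signal was 4.09e+07 to 6.45e+07 and 1.49e+08 to 3.39e+08. The ranges of the brightest probe overlapped and those of the summed signal did not, and the part of this in the shares was not tested. Each of the differences in share reached p = 0.000172 in a two-sided exact permutation test over arrays, the smallest p that 5 against 14 arrays allow. Over the means of the 7 cell types, 2 against 5, the exact p was 0.0952, again the smallest possible. Within slides 1, 3 and 4 the share of the 100 brightest was higher in erythroblasts by 21.0, 19.5 and 24.6 percentage points.

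The brightest named genes in erythroblasts were beta-globin Hbb-bt, with 0.98% of the signal, alpha-globin Hba-a1, with 0.90%, the 28S ribosomal RNA entry Rn28s1, with 0.82%, and H2A histones such as H2ac12, with 0.81%. In the other populations Hbb-bt held 0.015%, Hba-a1 0.016%, Rn28s1 0.061% and H2ac12 0.18%. Rn28s1 was at 12.14 to 12.97 on erythroblast arrays and 7.67 to 9.10 on the others, a difference of 4.35 ± 0.11. By the mean over the 14 other arrays, Rpl10, Actg1 and Rplp0 were the brightest there, with 0.098, 0.048 and 0.20% in erythroblasts and 0.36, 0.33 and 0.32% in the others. Those arrays were not alike: Actg1 held 0.60 to 0.64% on the granulocyte arrays and 0.21 to 0.31% on the other 11, and Rplp0 0.22 to 0.23% and 0.31 to 0.36%. Tpt1, the translationally controlled tumour protein gene, held 0.39% in erythroblasts and 0.32% in the others. Its difference of 1.04 ± 0.07 turned to -0.16 with quantile normalization and -2.61 with spike-in scaling.

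Ribosomal protein genes as a group held 2.53 to 4.96% of the signal on erythroblast arrays and 6.42 to 11.4% on the others. Hemoglobin probes held 2.42 to 4.16% in erythroblasts and 0.00465 to 0.327% in the others. Leaving them out kept a difference of 19.7 percentage points for the 100 brightest, against 21.2 with them. Of probes among the 100 brightest, 66 held this place on all 5 erythroblast arrays and 22 on all 14 others, and 12 were shared. Brightness depends on each probe's sequence, so these shares describe signal and not numbers of molecules.

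**Figure D4:**
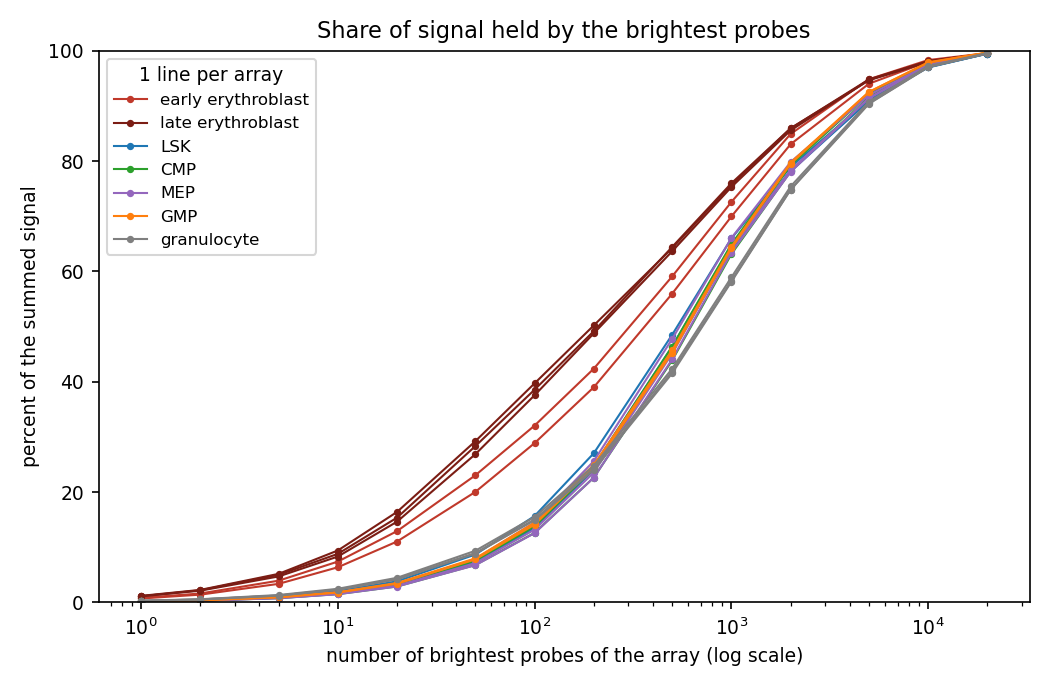
Percent of an array's summed signal held by its brightest probes, against their number on a log scale, with 1 line per array coloured by cell type. At 100 probes the erythroblast arrays lie between 28.9 and 39.7% and the others between 12.6 and 15.7%.

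Noncoding features were called higher more often than named genes. Of 3372 intergenic noncoding regions tested, 1356 were higher (40.2%) and 138 lower (4.09%), and of 1317 custom features designed from blood cell RNA sequencing, 1055 were tested, 339 were higher and 80 lower. In unscaled signal 111 regions and 54 custom features were separated. Regions had a median signal of 32.1 units on erythroblast arrays and 84.4 on the others, against 57.4 and 804 units for named genes, and the part of this low signal in the calls was not tested. The custom feature TCONS_00336294 differed by 10.44 ± 0.20 and TCONS_00108378 by 9.63 ± 0.11. TCONS_00126458 was detected only in erythroblasts and was at least 285-fold higher in scaled signal. Of those called lower, TCONS_00413755 fell by 5.19 ± 0.14. Of the regions, named by the files in mouse build mm9, chr12:32781477-32808567 differed by 9.51 ± 0.10. That at chr14:77006215-77063293 fell by 4.64 ± 0.13.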

How the data were processed

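RNA of 7 sorted populations was measured on 19 arrays. The authors extracted each deposited spot intensity with Agilent Feature Extraction 11.5.1.1, per the file headers, which subtracts background and flags spots; the labels name Cy5 and the files hold 1 green channel. The authors' series values are the background-subtracted intensity, used as an alternative only.

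Here, signals were taken to log2 and centred on each array's 75th percentile, without controls and outlier spots. A gene was read by its probe with the highest mean, named through RefSeq GRCm38.p6 (27235 of 55681 catalogue probes). limma 3.58.1 in R 4.3.3 fitted cell type means over all 19 arrays, contrasting the mean of 2 erythroblast stages with the mean of 5 other populations, with eBayes and Benjamini-Hochberg adjustment. A feature was tested if some cell type had it well above background on each of its arrays. On simulated data for 26049 features, the fit and the no-overlap rule recovered 96% of genes shifted by 2 and 54% of those shifted by 1 upwards on the log2 scale as calls, and 82% and 66% of those shifted by as much downwards. In the simulation the 5 other populations shared the same mean, and the background condition of a call was not applied. The rates therefore do not show how often the full rule finds a shift where these populations differ.

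Genes named were the 12 largest differences each way among called genes detected on all 19 arrays, the 6 largest bounds each way, up to 4 called members per list, the 10 brightest per side, 3 custom features and regions each way, and a fixed list of regulators, surface genes and sex-linked genes; other list members, stage genes and histones were picked after their values were seen, and not every gene the rule takes is reported. Members, lists and tests were chosen with earlier results of these data known. No spot was flagged as saturated. Some genes the rule takes are withheld and not reported here. The files hold no mean spot signal, so the median signal replaced it in the alternatives.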

Additional observations from a re-analysis of the deposited data

Results flagged for a closer look

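The difference from the other populations was not the same in early and late erythroblasts for 6 genes whose stages are given above, each past limma's test of late minus early erythroblasts. Xpo7 was higher in late erythroblasts by 4.27 on the log2 scale, Ube2h by 3.27, Bcl2l1 by 3.14 and Ube2o by 2.55. Plk1 and Aurka were lower in late erythroblasts, with -1.99 and -2.03. With the 75th percentile all 6 were called higher than the other populations, but with spike-in scaling the difference was 0.50 for Xpo7 (adjusted p = 0.165), 0.12 for Ube2h (adjusted p = 0.741), -1.21 for Plk1 and -1.40 for Aurka.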

How the results depend on the processing

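The balance of calls moved most with scaling. Features called higher numbered 288 with spike-in scaling and 717 without scaling, and those called lower 12997 and 12677; for named genes these were 147 and 372 higher, and 8837 and 8704 lower. A gap of at least 1 log2 unit left 3462 features higher and 2784 lower (named genes 1554 and 2303). Limma's threshold alone gave 9118 features lower, and 4547 named genes higher and 6640 lower. Testing fewer features, those well above background on all 19 arrays, left 2940 lower, of which 2357 named genes. Against MEP alone, with fewer arrays that must not overlap, 8233 were lower. Genes higher in late than in early erythroblasts numbered 1178 with the percentile over probes detected everywhere, 6 with spike-in scaling, 58 without scaling and 510 with the gap, and those lower in late erythroblasts 13, 42 and 258 with the last 3, and 1500 with limma's threshold alone. With 150-base windows 9.906% of promoters held the GATA letters, 37.85% the CCNCNCCC letters and 1.765% both.

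Of 104 called genes recomputed under 38 alternatives, 11 changed sign in at least 1, as did 8 of 9 genes not called. With spike-in scaling the differences were -2.607 for Actb, -1.402 for Aurka, -0.009437 for Bnip3l, -0.7185 for Ccna2, -1.258 for Ddx3y, -1.21 for Eif2s3y, -0.8402 for H2ac12, -0.5826 for H4c12, -2.194 for Noc3l, -1.21 for Plk1 and -2.61 for Tpt1. Without scaling they were -1.693 for Actb, -0.4878 for Aurka, -0.3436 for Ddx3y, -0.2957 for Eif2s3y, -1.28 for Noc3l, -0.2962 for Plk1 and -1.697 for Tpt1, and with quantile normalization -0.1588 for Tpt1. Ctsb, Cdkn2c, Cdkn2d, Gata1, Xpo7 and Ube2h kept their sign with spike-in scaling but no longer passed limma's test. The cause was not tested.

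Leaving out 1 array at a time gave 6175 to 6537 features higher and 5002 to 5367 lower, 2802 to 2939 named genes higher and 3966 to 4180 lower, 556 to 807 higher and 489 to 663 lower in late erythroblasts, and differences in signal share of 5.867 to 6.627 points for the 10 and 20.13 to 22.83 for the 100 brightest probes. With fewer arrays the no-overlap condition is easier to meet. Counts of calls against the other populations could thus hardly fall, and they do not test the calls. The replicate block left 6167 features higher and 4998 lower, and a slide block 6167 and 4997. Neither block alters the overlap of arrays. Same-numbered arrays on different slides had a mean correlation of -0.062 over 38 pairs, so the numbers do not pair the arrays. On 1 slide the mean correlation was 0.1185 over 14 same-numbered pairs and 0.170 over 16 others, and the main fit has no slide term. The unscaled and brightness alternatives and the use of median spot signal were chosen after seeing the data. Dim probes limit precision, since levels near background cannot be ordered.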

Other observations

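Other red cell genes were also higher. Trim10, a tripartite motif protein of erythroid cells, was at 6.66 to 8.14 on erythroblast arrays and -5.95 to -0.23 on the others, a difference of 9.74 ± 0.21 (SE). Tspo2, a relative of the mitochondrial translocator protein, differed by 7.61 ± 0.13, Cldn13, a claudin, by 7.80 ± 0.15, and Car2, carbonic anhydrase 2, by 5.34 ± 0.14. Of the autophagy and organelle list, Trak2, an adaptor for mitochondrial transport, differed by 5.31 ± 0.12.

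Of 20 Toll-like receptors and adaptors, 9 were lower and 1 higher, with a median of -2.28. The higher one was Tlr9, a receptor for DNA, at 4.31 to 5.35 on erythroblast arrays and 1.11 to 2.22 on the others. Unc93b1, which carries such receptors to endosomes, fell by 3.92 ± 0.16, and Myd88, their adaptor, fell by 2.19 ± 0.08. Of 36 splicing factors, 2 were higher and 5 lower, with a median of -0.63. These genes were chosen after their values were seen.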
